A study of Mus musculus with 10 samples.

Results

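MicroRNAs were profiled in the heart ventricles of wild-type C57BL/6 mice at postnatal day 2.5, and the 3 wild-type small RNA libraries described here are 3 of the 10 libraries of a study of conditional Trbp deletion in the heart. The libraries were chosen by their genotype and assay labels alone. The tissue is labelled heart, and the extraction protocol names the ventricle. The labels do not say whether a library came from 1 animal or a pool, whether the wild-type mice carried floxed alleles or a Cre transgene, or whether the libraries are separate animals, so that the spread between them may be technical. The deposited table lists 849 hairpins with 5p and 3p counts, or 1698 arms. The libraries held 2373259, 3885375 and 2876615 counts over all arms. Levels are given as CPM, the counts scaled to library totals of 1000000, with mean ± SD over the 3 libraries. Counts were not scaled by the length of the arm.

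A microRNA gene is transcribed as a hairpin, which Drosha trims and Dicer cuts into a short duplex. One strand of the duplex is usually retained in an Argonaute protein as the guide, and the other is mostly lost. The strand from the left side of the hairpin is the 5p arm and the strand from the right side the 3p arm. The seed, bases 2 to 8 of the guide, pairs with target messenger RNAs, so that arms with the same seed form a family. In the heart, miR-1 and miR-133 are known as the abundant muscle miRNAs, and miR-208a, miR-208b and miR-499 lie inside myosin heavy chain genes.

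The sequences below are those of abundant arms and of arms that share a seed or a myosin host gene with them, each printed 5′ to 3′ with the seed in capitals, from RefSeq on GRCm38.p6. The abundant arms miR-143-3p, miR-378a-3p, miR-126a-5p and miR-30d-5p had no sequence in the table used. The miR-30, miR-27, miR-10 and miR-208 pairs show arms of different genes with 1 seed, and miR-351-5p shares its seed with miR-125a-5p. The seed of miR-499-5p differs from that of the miR-208 arms only in its last base.
miR-22-3p: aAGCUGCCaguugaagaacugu
miR-148a-3p: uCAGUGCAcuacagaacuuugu
miR-30a-5p: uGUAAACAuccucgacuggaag
miR-30e-5p: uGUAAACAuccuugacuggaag
miR-27b-3p: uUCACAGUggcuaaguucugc
miR-27a-3p: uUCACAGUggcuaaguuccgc
miR-208b-3p: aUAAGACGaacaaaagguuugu
miR-208a-3p: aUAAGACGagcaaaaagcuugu
miR-499-5p: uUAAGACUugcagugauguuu
miR-351-5p: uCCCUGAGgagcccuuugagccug
miR-125a-5p: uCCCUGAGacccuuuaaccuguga
miR-10b-5p: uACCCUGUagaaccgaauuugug
miR-10a-5p: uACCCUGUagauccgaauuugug
On GRCm38, miR-22-3p lies at chr11:75463772-75463793 on the plus strand and miR-148a-3p at chr6:51269829-51269850 on the minus strand. The arm miR-30a-5p lies at chr1:23272274-23272295 on the plus strand, and miR-30e-5p at chr4:120772660-120772681 on the minus strand, within the span of Nfyc. The arm miR-27b-3p lies at chr13:63300760-63300780 on the plus strand, within the span of Aopep, and miR-27a-3p at chr8:84208727-84208747 on the plus strand. The miR-208b-3p arm lies at chr14:54975710-54975731 on the minus strand within Myh7, miR-208a-3p at chr14:54949072-54949093 on the minus strand within Myh6, and miR-499-5p at chr2:155622893-155622913 on the plus strand within Myh7b. On the X chromosome, miR-351-5p lies at chrX:53053315-53053338 on the minus strand. The arms miR-125a-5p (chr17:17830817-17830840), miR-10b-5p (chr2:74726074-74726096) and miR-10a-5p (chr11:96317186-96317208) lie on the plus strand, within the spans of Spaca6, of Hoxd3 and Hoxd4, and of Hoxb3. A span says that the hairpin lies between the ends of the gene. Its strand and its exons were not compared.

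Counts were found on 33.3% of the arms whose mature sequence is carried by several genes and on 56.5% of the arms with a sequence of 1 gene in the table used. Of 96 arms whose RefSeq mature sequence stands in 2 or more genes, 64 had no count in any wild-type library and 5 reached 100 CPM. Of 1290 arms with a sequence of 1 gene, 561 had no count and 129 reached 100 CPM. The shared arms together held 1.07% ± 0.133 of the counts, most of them on miR-92a-1-3p (9344 ± 1187 CPM), and the arms of 1 gene held 61.1% ± 1.5. The remaining 37.8% ± 1.44 was on the 312 arms with no sequence in the table used. How reads that match several hairpins were counted is not given in the sources used here, and its part in these counts was not tested. A sequence counts as that of 1 gene where no other gene in the table has it, so that a copy with no sequence there is missed.

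**Figure D1:**
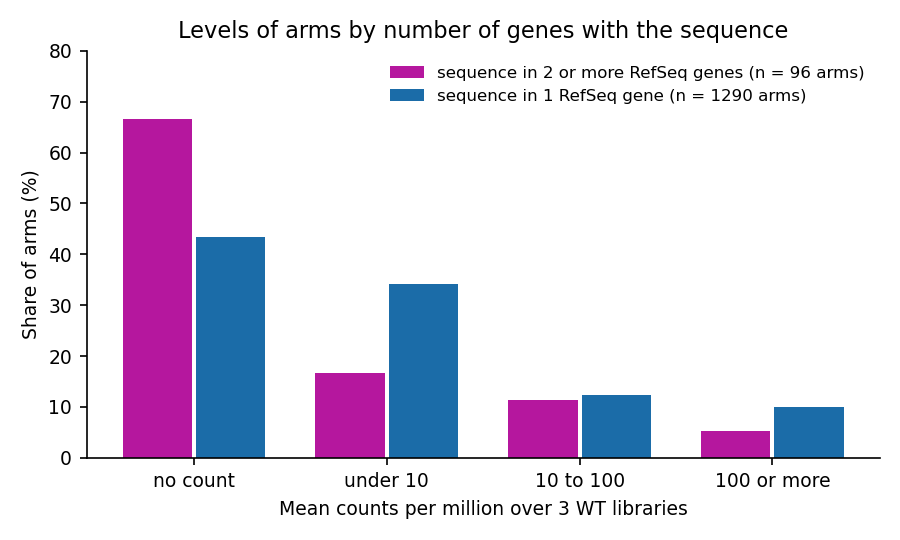
Share of arms (bars, %) by mean level over the 3 wild-type libraries, for 96 arms whose mature sequence is in 2 or more RefSeq genes and 1290 arms with a sequence in 1 gene. The arms with a shared sequence more often had no count (64 of 96) than the arms of 1 gene (561 of 1290).

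The muscle miRNAs miR-1a and miR-133a, each of which has 2 hairpins by name, were also near 0 on the 3p arm. The arm miR-1a-1-3p had 1, 1 and 0 counts and miR-1a-2-3p had 0 in every library. Both miR-133a-1-3p and miR-133a-2-3p had 0 counts in every library. These 3p arms had no sequence in the table used, so that their identity between copies was not checked. The 5p arms were counted: miR-133a-1-5p had 36, 84 and 60 counts, miR-1a-1-5p had 21, 31 and 24, miR-1a-2-5p had 4, 8 and 7, and miR-133a-2-5p had 0, 1 and 1. The related miR-1b-3p had 1, 0 and 0 counts. How far the deposited counts reflect the level of miR-1a and miR-133a in the ventricle was not tested.

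The mir-24 hairpins show a shared arm in their sequences. The 3p arm, printed last, is identical in both hairpins, while the 5p arms differ near their 3′ ends. Capitals mark the mature arms in the hairpins and the seed in the arms.
mir-24-2: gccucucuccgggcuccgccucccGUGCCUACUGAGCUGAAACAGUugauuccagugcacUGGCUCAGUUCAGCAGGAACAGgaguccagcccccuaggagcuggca
mir-24-1: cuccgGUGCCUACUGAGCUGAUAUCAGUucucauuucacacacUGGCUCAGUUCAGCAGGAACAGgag
miR-24-2-5p: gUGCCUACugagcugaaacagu
miR-24-1-5p: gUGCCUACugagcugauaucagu
miR-24-2-3p: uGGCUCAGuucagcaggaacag
The hairpin mir-24-2 lies at chr8:84208815-84208921 and mir-24-1 at chr13:63301208-63301275, both on the plus strand of GRCm38. The arm miR-24-2-5p had 1349, 2125 and 1830 counts and miR-24-1-5p had 46, 85 and 70. The shared 3p arm had 0 counts in every library at both hairpins, where 3 counts would be 1.26, 0.772 and 1.04 CPM.

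Among the arms that were counted, a few held most of the total. These shares and the ranks below take the deposited counts as they are, with few or no counts on the 3p arms of miR-1a and miR-133a. In each library 5, 5 and 6 arms held 50% of the counts, 33, 30 and 31 arms held 90%, and 141, 133 and 134 arms held 99%. The highest 10 arms of a library held 70.6% ± 1.91, the highest 20 held 83.8% ± 0.840, and the highest 100 held 98.2% ± 0.102 (SD, n = 3). A count was found on 696, 722 and 699 arms per library, on 862 arms in any library and on 573 in every library. Arms with a mean of 10000 CPM or more numbered 18, those with 1000 CPM or more 62, and those with 100 CPM or more 157. The inverse Simpson index, the number of equally abundant arms that would give the same evenness, was 13.8, 12.4 and 14.1.

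**Figure D2:**
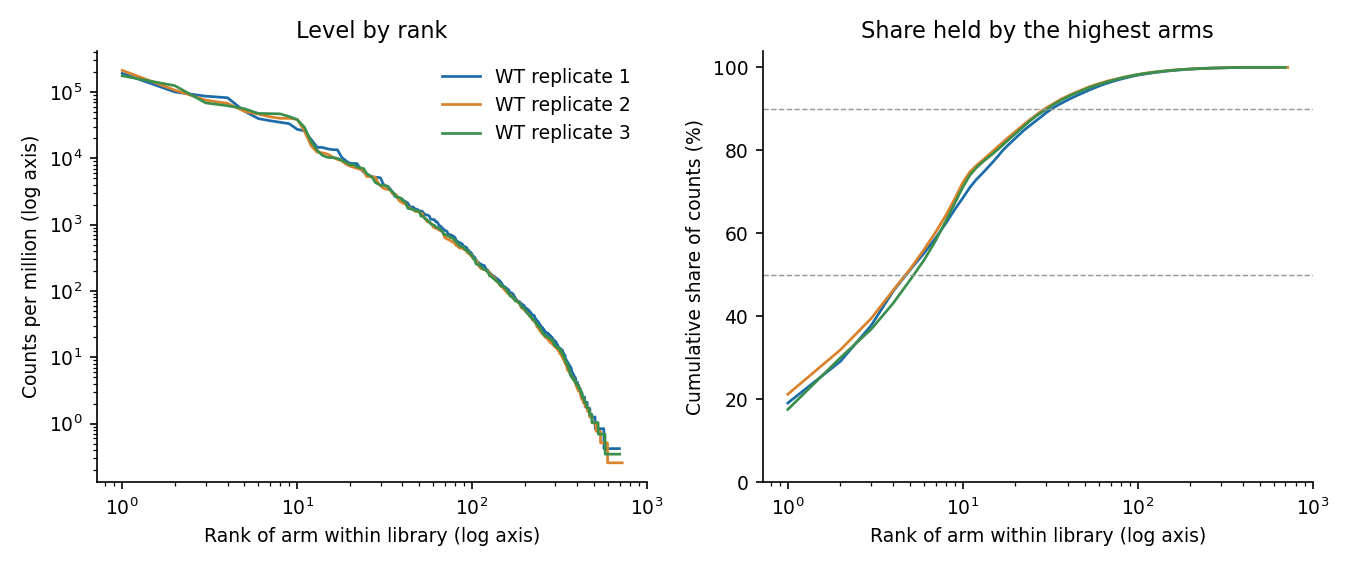
Left, level in counts per 1000000 (CPM) against the rank of the arm within its library, both on log axes. Right, cumulative share of counts against rank, with dashed lines at 50% and 90%; the 3 curves (1 per wild-type library) cross 50% at 5 or 6 arms and 90% at 30 to 33 arms.

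The highest arm was miR-143-3p, known for its high level in smooth muscle, at 191366, 212458 and 175786 CPM. It held 19.3% ± 1.84 of the counts, 1.74 times the level of the next arm, and its lowest library lay above every library of any other arm. The next was miR-22-3p, a miRNA abundant in cardiac muscle, at 100377, 107147 and 124817 CPM. Then came miR-378a-3p, which lies within Ppargc1b, a coactivator gene of mitochondrial metabolism, at 74356 ± 10778 CPM, and miR-148a-3p at 73352 ± 10147 CPM. The ranges of miR-378a-3p and miR-148a-3p overlapped, and both lay below miR-22-3p and above the arms that followed.

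The arms at ranks 5 to 9 changed order between libraries. The arm miR-30a-5p had 48481 ± 2641 CPM, and miR-126a-5p, from within the span of the endothelial gene Egfl7, 46888 ± 11912. The arms miR-27b-3p (42568 ± 4420 CPM), miR-30e-5p (41441 ± 6006) and miR-30d-5p (40025 ± 2941) followed, and each overlapped its neighbours. The cardiac miR-208b-3p came next, at 27490, 38903 and 38507 CPM, and miR-351-5p (27211 ± 2066), an arm of the mir-322 cluster, followed. Their ranges overlapped, but miR-208b-3p was at rank 10 and miR-351-5p at rank 11 in all 3 libraries. A gap without overlap lay below miR-351-5p, whose lowest library was 26013 CPM while the highest of miR-191-5p was 18112 CPM.

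The other 9 of the highest 20 were miR-191-5p (15770 ± 2288 CPM), the imprinted-cluster arm miR-127-3p (13446 ± 1099), miR-99b-5p (12907 ± 5712), miR-10b-5p (11771 ± 2308), miR-21a-5p (11659 ± 1616), miR-125a-5p (10575 ± 3607), miR-126a-3p (10381 ± 1187), miR-92a-1-3p (9344 ± 1187) and miR-10a-5p (8687 ± 1471). Over the 19 neighbouring pairs of the highest 20 arms, the ranges of 15 overlapped and those of 4 did not. All 3 libraries shared their highest 10 arms and 19 of their highest 20. Among the 20, 11 were 5p and 9 were 3p arms, while 5p arms held 37.7% ± 1.35 of all counts and 3p arms 62.3% ± 1.35.

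**Figure D3:**
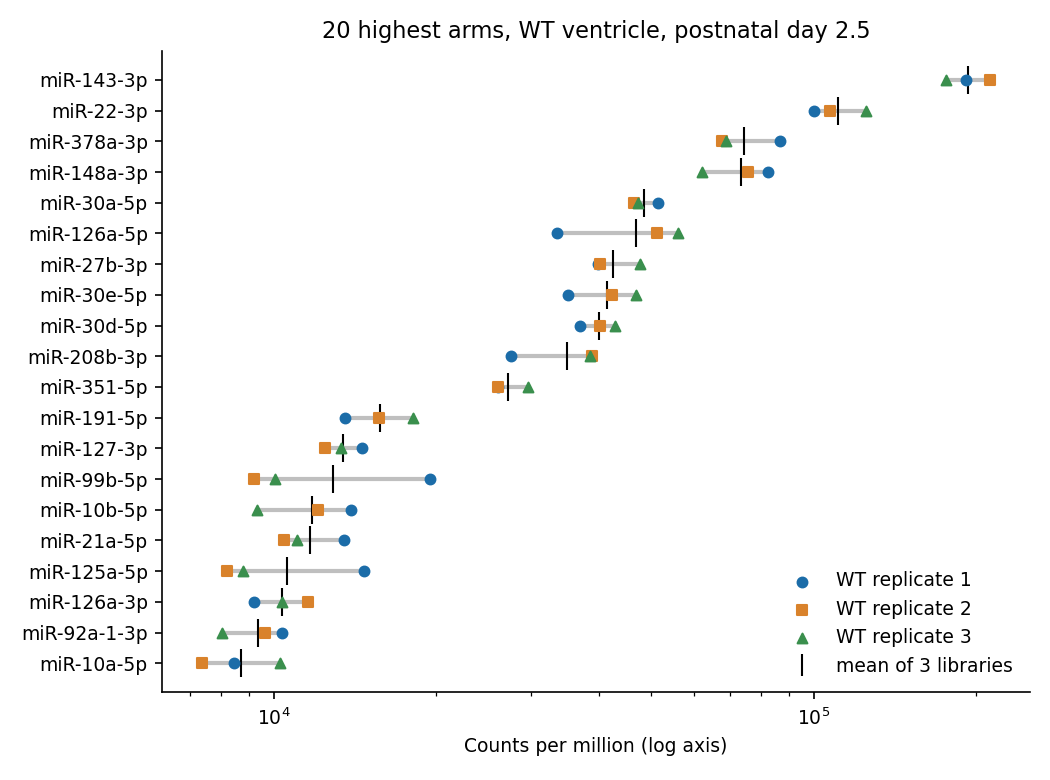
Counts per 1000000 (CPM, log axis) of the 20 highest arms, with 1 marker for each wild-type library, a grey line over their range and a black tick at their mean. Gaps without overlap stand after miR-143-3p, miR-22-3p, miR-148a-3p and miR-351-5p, and the ranges of the other neighbours overlap.

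Replicate 1 stood somewhat apart from the other libraries. Over 389 arms with 10 or more counts in every library, the median absolute log2 difference was 0.29 between replicates 1 and 2, 0.29 between 1 and 3, and 0.17 between 2 and 3. Differences of more than 2-fold were seen for 27, 17 and 5 of these arms. The median coefficient of variation was 13.8% for the 18 arms of 10000 CPM or more and 17.5% for the 185 arms of 10 to 100 CPM. Of the arms at 1000 CPM or more, the spread was widest for miR-434-3p (6243, 2953 and 2930 CPM in replicates 1 to 3), miR-99b-5p (19485, 9197 and 10039) and miR-125a-5p (14727, 8209 and 8789), all high in replicate 1. The arms miR-126a-5p (33415, 51224 and 56023 CPM) and miR-208b-3p were low there.

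Grouping by seed changed the picture for some families. The 761 counted arms with a RefSeq sequence fell into 645 seeds, of which 70 had more than 1 arm, and the 10 highest of these seeds held 46.2% of all counts. Arms with no sequence, miR-143-3p and miR-378a-3p among them, are outside this ranking and held 37.8% of the counts. The seed of miR-22-3p, with 1 arm, held 11.1% ± 1.26. The seed of miR-30a-5p held 8.99% ± 0.398 without miR-30d-5p and miR-30b-5p, which had no sequence in the table. Counted by name, the miR-30 hairpins held 13.5%, 14.0% and 14.8% of the libraries. The seed of miR-148a-3p held 7.37% ± 1.01, nearly all of it on that arm, and the seed of miR-27b-3p 4.48% ± 0.468, with 95.0% of it on miR-27b-3p. The seed that miR-351-5p and the miR-125 arms share held 3.78% ± 0.331, with 71.9% on miR-351-5p. The let-7 seed, spread over 11 arms and led by let-7i-5p (7825 ± 511 CPM) and let-7g-5p (3725 ± 238), held 1.67% ± 0.109. Among the 11, the shared sequences let-7f-2-5p, let-7c-1-5p and let-7c-2-5p had 586 ± 110, 18.6 ± 0.619 and 12.5 ± 2.67 CPM. The arm let-7a-1-5p had 10.9 ± 2.96 CPM. Its copy by name, let-7a-2-5p, had no sequence in the table, so that their identity was not checked.

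The miRNAs of myosin genes, which mark heart muscle, were present, while the 3p arms of miR-1a and miR-133a had few or no counts, as given above. The arm miR-208b-3p, from Myh7, the fetal and slow myosin gene, had 34967 ± 6478 CPM. The arm miR-499-5p, from Myh7b, had 2216, 2857 and 2571 CPM, and miR-208a-3p, from Myh6, had 1195, 1544 and 1765 CPM. In each library the order was miR-208b-3p, miR-499-5p, miR-208a-3p, and the 3 ranges did not overlap. The opposite arms were lower, at 217 ± 11.2 CPM for miR-208a-5p, 48.4 ± 5.50 for miR-499-3p and 15.7 ± 3.54 for miR-208b-5p. The skeletal muscle miRNA miR-206, which has a sequence of its own, had 0 counts on both arms in every library, which allows up to 0.772 to 1.26 CPM per library by counting error. Its neighbour on chromosome 1, miR-133b-3p, had 51, 63 and 42 counts. The myomiR list as a whole, with 9 members on 11 hairpins, held 3.98% ± 0.701 of counts and had 15 of 22 arms counted, against 50.8% of all arms in the table. The arm miR-486-5p had 257 ± 19.3 CPM and miR-486-3p 245 ± 46.8. The hairpin mir-486 overlaps mir-3107 within Ank1, so that their reads may not be separable.

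Markers of other cell types in the ventricle were present to different extents. The smooth muscle arms miR-143-3p, miR-145a-5p (1266 ± 77.0 CPM), miR-145a-3p (489 ± 197) and miR-143-5p (43.1 ± 10.8) held 19.5% ± 1.84 of the counts. The endothelial hairpin mir-126a held 4.26%, 6.28% and 6.64%, lowest in replicate 1. Of the 4 arms of the endothelial list, 2 were counted. Blood miRNAs held 0.193% ± 0.0175, without the list member miR-451a, which was not analysed here. They had 10 of 10 arms counted, against 50.8% of all arms in the table. Among the blood arms were the leukocyte arm miR-142-5p (1074 ± 155 CPM) and the lymphocyte arm miR-150-5p (308 ± 20.6). Both arms of erythroid mir-144 were counted, at 153 ± 13.8 (5p) and 199 ± 30.2 CPM (3p). The list of fibroblast and matrix miRNAs held 1.24% ± 0.164, nearly all on miR-21a-5p. The arms miR-214-3p (209 ± 4.41 CPM), miR-21a-3p (132 ± 29.5) and miR-199b-5p (121 ± 33.2) were far lower. Of the 18 arms of this list, 7 have a shared sequence, and the highest of these was miR-199a-2-3p at 11.8 ± 1.32 CPM. The part of shared sequences in the level of this list was not tested. In bulk tissue, more cells of a type and more of a miRNA per cell cannot be told apart.

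Markers of tissues outside the heart differed in level. The liver miRNA miR-122-5p had 2, 3 and 5 counts. The islet miRNA miR-375-3p had 4, 12 and 4 counts, and the stem cell list held 0.000358% ± 0.000242 of the counts. The neuronal hairpins of mir-9 and mir-124 had 0 counts, and each has several copies by name. The part of shared sequences in their 0 was not tested. The neuron list held 0.0211% ± 0.00316, mostly on miR-128-1-3p (155 ± 31.5 CPM), a shared sequence, and miR-128-1-5p (33.8 ± 4.63). The epithelial list held 0.0119% ± 0.00418, and its highest arm was miR-203-3p, with 106, 156 and 113 counts (41.4 ± 2.89 CPM). It had 11 of 14 arms counted and the neuron list 6 of 22, against 50.8% of all arms in the table. A high share of counted arms thus does not by itself mark a heart list. The clustered arms miR-429-3p (103, 18 and 13 counts) and miR-200b-3p (76, 11 and 7) were highest in replicate 1, while miR-141-3p (58, 127 and 88) was not. The part of the epithelial arms in the other differences of replicate 1 was not tested.

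**Figure D4:**
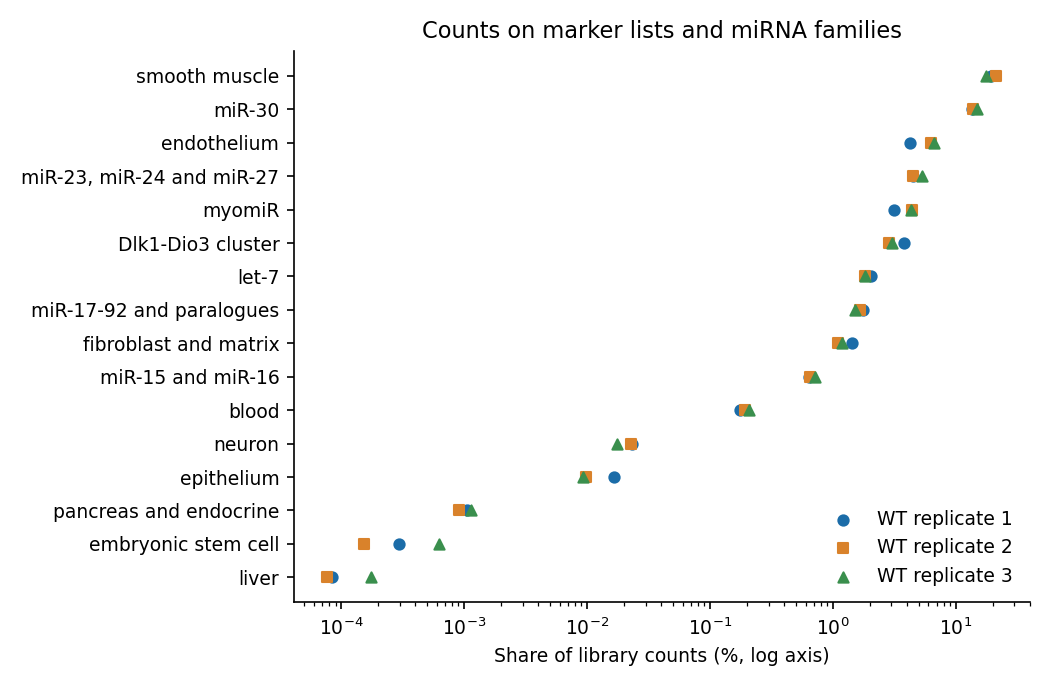
Share of library counts (%, log axis) on each marker list or miRNA family, with 1 marker for each wild-type library. The smooth muscle list (17.8% to 21.4%) and the miR-30 list (13.5% to 14.8%) were highest, and the pancreas, stem cell and liver lists lay near 0.001% or below.

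Growth-related clusters were detected at middle levels. The list of miR-17-92 and its paralogues, which promote proliferation, held 1.65% ± 0.133, led by miR-92a-1-3p, miR-25-3p (3555 ± 212 CPM) and miR-93-5p (1642 ± 65.6). The miR-15 and miR-16 list, whose members restrain the cell cycle, held 0.674% ± 0.0433, led by miR-322-5p (3485 ± 403) and miR-322-3p (1677 ± 155). This share leaves out mir-497, which had 428 CPM over both arms. The shared miR-16-5p sequence had 44, 70 and 58 counts at mir-16-1 and 12, 37 and 17 at mir-16-2. The list of miR-23, miR-24 and miR-27 held 4.75% ± 0.478, and let-7 1.91% ± 0.137. In these lists 2 of 12 and 6 of 24 arms have a shared sequence, the uncounted 3p arms of mir-24 among them. The part of shared sequences in these sums was not tested. The list of the imprinted Dlk1-Dio3 cluster of chromosome 12, a placental and fetal growth locus, held 3.21% ± 0.485. It leaves out mir-299a and mir-341, which lie on the same stretch of the chromosome. It had 77 of 82 arms counted (all arms in the table: 50.8%) and 14 at 100 CPM or more (all arms in the table: 9.25%). Its highest arms were miR-127-3p, miR-411-5p (5544 ± 254 CPM), miR-434-3p and miR-541-5p (1730 ± 126).

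Hairpins of 1 locus differed widely in level. Among hairpins with 100 or more counts over both arms in every library, 79 lay in 23 clusters with gaps of at most 10000 bases. The highest hairpin of a cluster was 14.5 times the lowest in the median cluster, and more than 10 times in 12 of the 23. On chromosome X, from 53047997 to 53054349, mir-351 had 27238 CPM over both arms and the lowest of the 5 clustered hairpins 90.8 CPM. On chromosome 14, from 115043671 to 115044506, mir-92a-1 had 9458 CPM and the lowest of 5 hairpins 96.1. The 3p arm of mir-92a-1, which held 98.8% of its counts, is a sequence shared with another hairpin. The part of shared sequences in the differences within clusters was not tested. On chromosome 18, mir-143 had 193246 and mir-145a 1755 CPM. On chromosome 8, mir-181c and mir-181d were within 4.88-fold of each other.

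The arm with more counts was then read for the 176 hairpins with 100 or more counts over both arms in every library. How far a share of counts reflects the strand retained in Argonaute was not tested. They were 20.7% of the hairpins in the table and held 99.8% of the counts of each library. The 5p arm had more counts in 89 of them and the 3p arm in 87. In the median hairpin the higher arm held 97.5% of the counts, and in 119 hairpins it held 90% or more, 64 on 5p and 55 on 3p. Between 40% and 60% lay 11 hairpins. The higher arm was the same in every library for 170 of 176 hairpins, and the median SD of a 5p share over libraries was 0.555 percentage points. Just inside the minimum, mir-496a had 102, 141 and 109 counts and a 5p share of 0.542% ± 0.481, and mir-487b had 132, 105 and 105 counts and 0.317% ± 0.550. Just outside it, mir-16-1 had 117, 133 and 98 counts and 49.8% ± 11.1, and mir-194-1 had 98, 310 and 206 counts and 95.7% ± 2.45.

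A test of 5p over 3p counts within libraries placed nearly every hairpin on one side. With edgeR's quasi-likelihood test and library as a block, 84 hairpins (47.7%) had more 5p and 83 (47.2%) more 3p counts at a Benjamini-Hochberg adjusted p of 0.05, so that 167 (94.9%) passed in either direction and 9 did not. The test asks whether the arms differ in counts. Of the 176 hairpins, 14 had an arm whose sequence is shared with another hairpin. Leaving these out kept 80 calls for 5p and 73 for 3p among 162 hairpins.

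**Figure D5:**
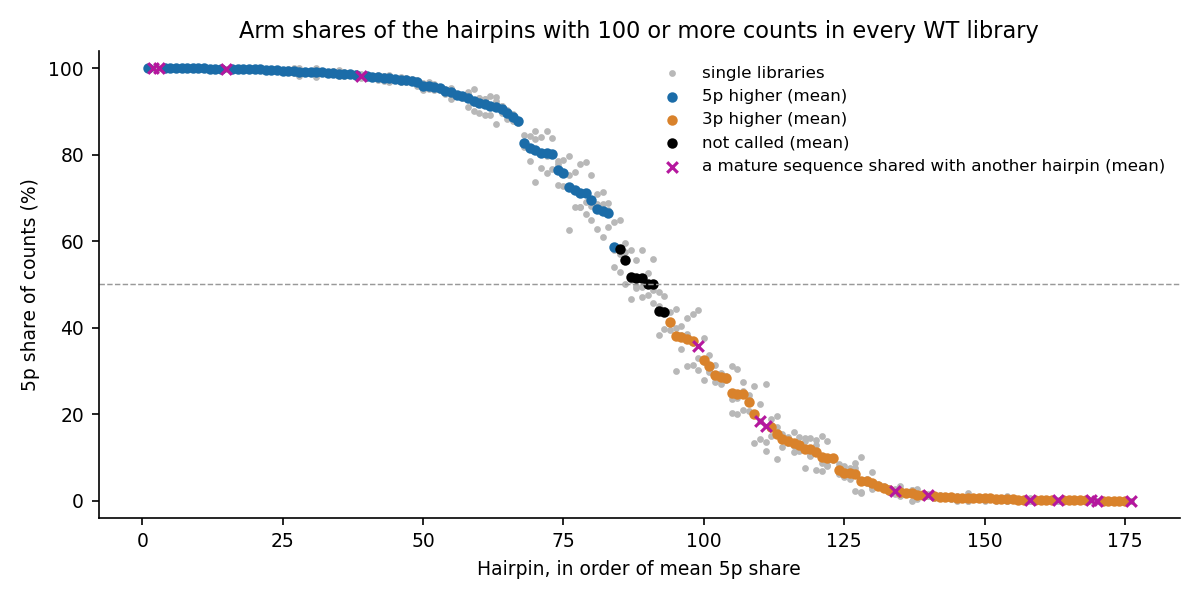
Share of counts on the 5p arm (%) for the 176 hairpins with 100 or more counts in every wild-type library, in order of the mean share. Coloured points are means over the 3 libraries by edgeR call (84 with 5p higher, 83 with 3p higher, 9 not called), grey points the single libraries, and crosses the 14 hairpins with a mature sequence shared with another hairpin.

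Among the abundant hairpins the split was near complete. The 5p share of mir-143 was 0.029%, 0.017% and 0.021%, that of mir-22 0.038%, 0.036% and 0.023%, and that of mir-208b 0.0453% ± 0.00806. On the other side, mir-10b had a 5p share of 99.97% ± 0.00472 and mir-351 of 99.9% ± 0.0285. The hairpin mir-30a, printed here with its arms in capitals, had 98.0% ± 0.225 of its counts on the left arm.
mir-30a: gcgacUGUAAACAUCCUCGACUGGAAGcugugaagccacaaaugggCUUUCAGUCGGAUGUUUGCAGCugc
It lies at chr1:23272269-23272339 on the plus strand. The median share of the higher arm was 99.7% for the 17 hairpins of 10000 CPM or more and 90.2% for the 40 under 100 CPM. Of the hairpins of 10000 CPM or more, 94.1% had 90% or more on one arm. The exception was mir-126a, with 81.5% ± 2.99 on 5p (log2 ratio of 5p over 3p 2.15 ± 0.20, SE, edgeR adjusted p = 1.12e-13), lowest in replicate 1 at 78.4%.

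The most one-sided hairpins by mean share on 5p were mir-146a, mir-24-2, mir-199b, mir-204, mir-298, mir-192, mir-10b and mir-541. The first 4 had no 3p count, and for mir-24-2 and mir-199b the 3p arm is a shared sequence. For mir-204, whose 3p arm has a sequence of its own, 600, 882 and 604 counts lay on 5p, which allows a 3p share of up to 0.5% in the shallowest library. For mir-146a, an inflammation-induced miRNA with 146, 645 and 377 counts on 5p, the limit was 2.05%. The most one-sided on 3p were mir-181a-2, mir-181a-1, mir-1249, mir-668, mir-320, mir-574, mir-326 and mir-92a-2. Of these, mir-574 (418, 678 and 411 counts on 3p), mir-668 (164, 218 and 158) and mir-326 (167, 167 and 123) had no 5p count although both arms have a sequence of their own. Their limits on the 5p share were 0.730%, 1.90% and 2.44%.

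Several of these shares involve shared sequences. Of 14 hairpins with exactly 1 shared arm, the other arm was the higher in 9. In the remaining 5 the shared arm held most counts: let-7f-2 (99.8% ± 0.0776) and mir-181b-2 (98.3% ± 0.440) on 5p, and mir-92a-1, mir-92a-2 and mir-128-1 on 3p, with 5p shares of 1.22% ± 0.307, 0% and 18.3% ± 4.07. Both mir-181a hairpins had 0 or 1 counts on 5p in every library, against 3329, 4282 and 2860 on the 3p arm of mir-181a-2 and 1672, 2070 and 1611 on that of mir-181a-1. Their relatives mir-181c and mir-181d, with 5p arms of their own, held 90.6% ± 0.919 and 99.8% ± 0.0218 on 5p. Likewise mir-30c-1 and mir-30c-2 had 5p shares of 0.0478% ± 0.0828 and 0.181% ± 0.314, while mir-30a, mir-30b, mir-30d and mir-30e had 98.0% ± 0.225, 99.4% ± 0.265, 98.6% ± 0.109 and 94.5% ± 1.47. For mir-125b-1 and mir-125b-2 the 5p shares were 17.3% ± 8.35 and 2.18% ± 0.560, against 99.7% ± 0.0961 for mir-125a. The part of the shared sequences in the shares of the copied hairpins was not tested.

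In 9 hairpins the difference between arms did not pass the test. The largest in counts was let-7d, with 6138, 8033 and 6676 counts on 5p and 5910, 9212 and 4866 on 3p. Its 5p share was 51.8% ± 5.68 (log2 ratio 0.10 ± 0.17, edgeR adjusted p = 0.568), and its libraries lay on both sides of 50%. Its arms have these sequences, with the seeds in capitals.
let-7d-5p: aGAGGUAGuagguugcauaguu
let-7d-3p: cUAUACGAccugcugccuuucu
On GRCm38 they lie at chr13:48536078-48536099 and chr13:48536024-48536045, on the minus strand. The other let-7 hairpins with a 5p sequence of their own were one-sided: let-7i held 99.7% ± 0.0212, let-7g 99.8% ± 0.0460, let-7b 97.8% ± 0.656, let-7e 97.4% ± 0.630 and mir-98 93.5% ± 0.469 on 5p. The remaining 8 were mir-350, mir-376b, mir-369, mir-486, mir-339, mir-1843b, mir-485 and mir-144, with 5p shares from 43.6% to 58.3% and edgeR adjusted p from 0.0531 to 0.998. Of these, mir-486 overlaps mir-3107, which had a 5p share of 99.8% ± 0.191, so that their shares may not be separable. A p above the threshold does not show that the arms were equal: for mir-144 the log2 ratio was -0.37 ± 0.20. The shares of mir-144 (47.4%, 39.6% and 44.0%), mir-485 (45.1%, 38.3% and 48.2%) and mir-350 (65.0%, 52.9% and 57.0%) each lay on 1 side of 50% in every library. The edgeR test called mir-144 without replicate 1, and mir-350 with a minimum of 10 counts or with hairpin copies pooled.

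Members of 1 cluster or family did not always have more counts on the same arm. Hairpins with more 5p and with more 3p counts, called by the test or not, occurred together in 12 of the 23 clusters. Without hairpins with a shared arm, this held for 8. Over all 176 hairpins the higher arm was 5p in 89 and 3p in 87. Whether clusters differ from this split was not tested. In the miR-17-92 cluster, mir-17, mir-18a and mir-20a had 89.5% ± 1.17, 88.6% ± 0.778 and 97.3% ± 0.392 on 5p, while mir-19a had 1.35% ± 1.16 and mir-92a-1 1.22% ± 0.307. In the cluster within Mcm7, a replication helicase gene, mir-93 had 98.4% ± 0.415 and mir-106b 71.9% ± 4.14 on 5p, against 0.396% ± 0.0582 for mir-25. In the chromosome X cluster, mir-351 and mir-450b (91.7% ± 2.16) were mainly 5p and mir-322 was split at 67.4% ± 4.15, while mir-542 (29.0% ± 2.12) and mir-503 (22.8% ± 2.0) had more 3p. In the longest cluster, on chromosome 12 from 109709060 to 109743795, 7 of 18 hairpins had more 5p and 11 more 3p, from mir-541 at 99.97% ± 0.0348 on 5p to mir-668, which had no 5p count. In the miR-148 family, mir-148a had 1.3% ± 0.245 and mir-148b 24.95% ± 5.56 on 5p, and mir-152 71.2% ± 6.39. For mir-208a the 5p share was 12.8% ± 1.70, against 0.0453% ± 0.00806 for mir-208b.

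The 5p shares that varied most between libraries were those of mir-145a, mir-125b-1, let-7c-1 and mir-362. The share of mir-145a was 62.6%, 75.3% and 79.8% in replicates 1 to 3, with 5p higher in every library (log2 ratio 1.44 ± 0.19, edgeR adjusted p = 7.40e-08). That of mir-362 was 44.3%, 30.0% and 39.8%, with 3p higher in every library (-0.72 ± 0.23, edgeR adjusted p = 0.00339), and its call ended without replicate 2, with DESeq2 and against a 2-fold threshold. The shares of mir-125b-1 and let-7c-1 involve a shared 5p sequence, and the call of let-7c-1 (5p share 35.7% ± 7.40) ended with DESeq2 and against a 2-fold threshold.

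The first base was compared between the higher and the lower arm of each hairpin. Over the 148 hairpins with a RefSeq sequence for both arms, 70 of the higher arms (47.3%) and 34 of the lower arms (23.0%) began with U. Of all arms with a known sequence, 41.8% began with U, and of those at 100 CPM or more 45.5% did, so that the lower arms stood farther from these shares than the higher arms. The higher arm alone began with U in 57 hairpins and the lower arm alone in 21. Among 98 hairpins with 90% or more on one arm the shares were 52.0% for the higher and 18.4% for the lower arms, and among 25 hairpins with less than 75% on either arm they were 36% and 40%. For hairpins with more 5p counts, 54.5% of the 5p arms and 22.1% of the 3p arms began with U. For those with more 3p counts, 39.4% of the 3p arms and 23.9% of the 5p arms did. The higher arm had more A or U among its first 4 bases in 68 hairpins, the lower arm in 36, and 44 were equal. Median length was 22 bases for both. Hairpins of 1 family share sequence, so these are counts and not tests. With 1 hairpin kept per seed, 45.7% of 116 higher arms and 27.6% of the lower arms began with U.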

How the data were processed

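Small RNA libraries were made with the Illumina TruSeq Small RNA kit, per the labels' protocols. Tools listed in the submitters' processing notes, without their roles, are Bowtie 0.12.9, SAMtools 0.1.16, CASAVA 1.8.2, cutadapt 0.9.5 and edgeR, and the build is mm10. The authors deposited raw counts per hairpin and arm: the values are whole and the library sums differ. The counting step is not given in the sources used here. Groups and replicates came from the sample titles, and the 3 wild-type libraries were analysed with no genotype comparison.

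Of 849 hairpins, 848 matched a RefSeq gene (GRCm38.p6, the coordinates of mm10) by symbol or synonym, and 1386 arms a mature sequence. CPM used column totals. Arms were compared in R 4.3.3 with edgeR 4.0.16 (glmQLFit with robust dispersion, glmQLFTest), with 5p and 3p as columns of a library, library as block, library totals as sizes, and a minimum of 100 counts. The common biological coefficient of variation was 0.160. DESeq2 1.42.0 was an alternative.

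Named arms are the 20 highest, the counted myomiR arms and up to 4 of the highest arms per list, with let-7 and miR-16 copies named for their shared sequences after their values were seen. Named hairpins are the 8 highest, 8 lowest and 8 most even 5p shares, the 4 widest spreads and cluster or family members. Members and lists were chosen with earlier results of these data known. Leaving out hairpins with shared sequences, in the arm tests and the clusters, was chosen after seeing the counts. List members miR-451a, miR-145b and miR-292a were not analysed here. The list member miR-497a was not matched by name, and mir-497, analysed among the hairpins, is outside the list sum. Intervals and floors cover counting error only.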

Additional observations from a re-analysis of the deposited data

How the results depend on the processing

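With 3 libraries each SD is itself imprecise, a count of 0 allows up to 3 counts per library, and how reads matching several gene copies were counted is not given in the sources used here. The number of arms detected per library was 706, and 389 arms had 10 or more counts in every library. The highest 10 arms held 66.9% without the most abundant arm, against 70.6% with it. With a minimum of 10 counts the edgeR test called 123 of 265 hairpins (46.4%) with more 5p and 128 (48.3%) with more 3p. With a minimum of 1000 it called 49 of 84 (58.3%) and 33 (39.3%), and with no minimum 146 of 561 (26%) and 156 (27.8%). Hairpins with 90% or more on one arm were 179 of 265 (67.5%) with the minimum of 10 and 64 of 84 (76.2%) with that of 1000. The median share of the higher arm was 98.7% with the minimum of 1000, 96.8% with hairpin copies pooled and 97.0% without shared arms. Other minimums take in other numbers of hairpins. The cause of the remaining changes was not tested.

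Without the replicate block, which treats the arms of a library as unpaired, the edgeR test called the same 167 hairpins, 84 with more 5p and 83 with more 3p. Leaving out 1 library at a time gave 83 to 87 hairpins with more 5p and 81 to 85 with more 3p, 119 to 123 with 90% or more on one arm, and 69.8% to 71.7% of counts on the highest 10 arms. The call of mir-376a ended without any 1 library. No call reversed under any alternative run. DESeq2 called 83 and 80 hairpins, and a test against a 2-fold threshold (glmTreat) 79 and 75. Scaling the arm columns by TMM gave 83 and 89, and 6 of the 9 hairpins not called, let-7d among them, then passed. This scaling gives the 5p and 3p columns of a library separate factors, which shifts the ratio taken as equal. The hairpins mir-339 and mir-1843b, with nearly equal mean shares on both arms, were among those that passed. The TMM run therefore does not test whether the arms differ in counts, and no arm preference is read from it.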
